A study of Bos taurus with 88 samples.

Results

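The comparison at 0 h set the blood transcriptome of dairy calves against that of beef calves at birth, in the samples drawn before colostrum was given. Its members were all 22 samples labelled 0 h among the 88 samples of the study, which followed the same 22 calves to 48, 72 and 168 h. The 8 dairy calves were Holstein (H, holstein friesian in the labels), born at the research farm of AFBI Hillsborough, taken from the dam shortly after birth and then given 5% of their body weight of colostrum by tube. The 14 beef calves were born to Charolais × Limousin cows (CL, n = 7) or Limousin × Friesian cows (LF, n = 7) at Teagasc Grange and stayed with their dams. Their sires were Aberdeen Angus or Charolais, so CL and LF name the type of cow. The labels give no other treatment and no allele for any calf. Breed, farm and handling at birth changed together between H and beef calves and cannot be told apart in any result that follows.

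The calf is born with almost no circulating antibody, because the bovine placenta does not pass maternal immunoglobulin to the fetus. It depends on antibody absorbed from colostrum during its first hours of life. The cells in its blood at birth have been formed before birth, and birth itself brings a surge of glucocorticoid, a change in oxygen supply and a high number of circulating neutrophils in this species. Blood drawn before colostrum therefore shows the state of these cells before that feed.

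Whole blood was collected into tubes that stabilise RNA, and the mRNA of each sample was sequenced as 1 library. At 0 h the libraries held between 10023822 and 39304404 reads on genes (median 22013258). Expression levels are given as CPM, the reads of a gene per 1000000 reads on genes of the library after TMM scaling. Before that scaling, 3 counts corresponded to 0.0763 to 0.299 CPM. Of 24616 genes, 4786 had no count in any of the 22 samples. Each sample came from a separate calf. The 119 pairs of samples within H and within beef calves all differed by far more than counting error (lowest chi-square per degree of freedom 32.0). Genes are given by Ensembl identifier, because no source used here paired the identifiers with symbols. The lists of immune pathways and of blood cell types, and the check of the tissue against blood cell markers, were therefore not applied. In whole blood, fewer cells of a type and less RNA per cell cannot be told apart.

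The labels give each library an L number whose meaning is not stated, and of 15 such numbers at 0 h, 3 held both H and beef samples, with at most 2 samples for each number. The only library at 0 h whose label ends in R, a mark that is also not explained, is H replicate 5. A pair of libraries stood apart. In H replicate 6, 41.0% of reads mapped to several places and the 2 most abundant genes took 32.1% of the reads on genes. In LF replicate 1, 32.8% of reads mapped to several places and 27.7% did not map, which left 26.1% of reads on genes. Main results are also given without these libraries.

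The 22 blood transcriptomes separated by calf type at birth. The first principal component of log2 CPM, which was computed without the labels and carried 29.03% of the variance, placed H samples between 10.46 and 75.01 (median 34.76) and beef samples between −47.19 and 10.16 (median −21.74). Every H sample lay above every beef sample, and the exact permutation test over all 319770 arrangements of 8 and 14 samples gave p = 3.127e-06, the smallest it can give (adjusted p = 9.382e-06 over the 3 components tested). Components 2 and 3 carried 11.6% and 8.60% of the variance and did not pass the exact test (adjusted p = 0.611 and 0.863). The margin on component 1 was narrow. H replicate 5 at 10.46 and LF replicate 6 at 10.16 almost met. Without both libraries that stood apart, the groups again did not overlap on component 1 (14.6 to 59.7 in H and −45.9 to 14.4 in beef samples, exact p = 1.29e-05). Component 1 over all 22 samples had r = 0.454 with the share of reads that mapped to several places. With the share of reads outside annotated genes it had r = 0.150. Without both libraries these values were 0.421 and 0.616. A part of these shares in the separation was not tested.

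**Figure D1:**
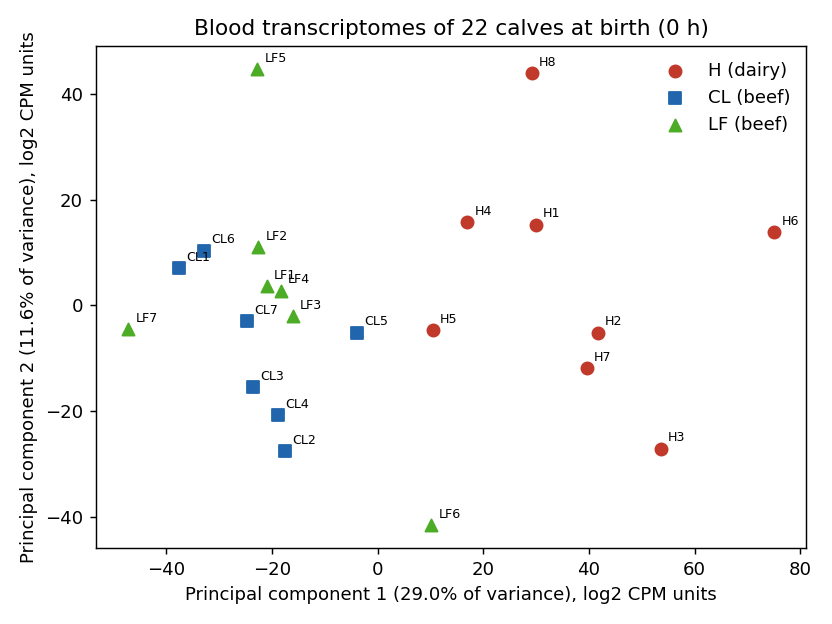
First (x axis) and second (y axis) principal component of log2 CPM of the 22 samples at 0 h, in log2 CPM units, with H samples as circles, CL as squares and LF as triangles. H samples lie between 10.46 and 75.01 on component 1 and beef samples between −47.19 and 10.16, while CL and LF samples are mixed and component 2 does not separate the calf types.

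Distances between samples, each taken over all genes tested in the same log2 CPM, gave the same picture. The root mean square difference in log2 CPM had a median of 0.804 between H and CL samples and of 0.792 between H and LF samples. Within groups it was 0.695 for H, 0.626 for CL and 0.647 for LF. CL and LF samples lay at 0.630 from each other, as near as samples of 1 beef breed. The sample nearest to each H sample was another H sample in 8 of 8 cases, and the sample nearest to each beef sample was another beef sample in 14 of 14. H calves also varied most among themselves. The median over genes of the SD of log2 CPM was 0.328 in H, 0.242 in CL and 0.297 in LF samples, and without both libraries that stood apart it was 0.316, 0.242 and 0.297. This order was not tested.

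At birth, 2338 of 12912 genes tested were differentially expressed (DEG) between H and beef calves, 18.1% of the genes tested. Genes were called DEG where edgeR's quasi-likelihood test gave a p under 0.05 after Benjamini-Hochberg adjustment over all genes and H and beef calves differed at least 1.5-fold. Expression was higher in H calves for 1457 of these genes (11.3% of the genes tested) and lower for 881 (6.82%), so 62.3% of DEG were higher in H. An unadjusted p under 0.05 was found for 6491 genes (50.3%), and 5298 genes passed the adjusted p without regard to fold change, of which 2579 (48.7%) were higher in H. Genes called without regard to fold change were thus divided about evenly, and the excess of higher expression in H came with the larger fold changes. The split depends on the scaling. With scaling to the library size alone, the median log2 fold change of all genes moved from −0.0359 to −0.307, and 3363 DEG were called with 21.8% higher in H. With RLE scaling the median was −0.0031 and 67.0% of 2313 DEG were higher in H. Directions given below are relative to the TMM scaling. Leaving out both libraries that stood apart left 2011 DEG, of which 1874 were among the 2338 and 66.4% were higher in H. With the L number as a covariate in the 22 samples, 1169 DEG were called, of which 864 were among the 2338 and 55.3% were higher in H. That fit compared calf type only within the 3 L numbers that held both H and beef samples, with at most 2 samples each. It is thus no comparison of all H with all beef samples, and it had 6 residual degrees of freedom.

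Relative to TMM scaling, DEG higher in H had larger fold changes than DEG lower in H. The median absolute log2 fold change was 0.94 for the DEG higher in H (quartiles 0.74 and 1.31) and 0.78 for those lower in H (0.67 and 0.97), against 0.28 over all genes tested. At least a 2-fold difference was reached by 654 higher and 200 lower DEG. A difference of at least 8-fold was reached by 19 higher and 5 lower DEG. Without both libraries that stood apart, the medians were 0.92 and 0.79, and 571 DEG higher in H reached 2-fold. These sizes are of the same contrast that made the calls and are given as a description. No gene was switched fully on or off by calf type. No gene had at least 10 counts in every H sample and at most 3 in every beef sample, and no gene had the opposite pattern (0 in each direction).

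The direction of the difference varied with the abundance of the gene. Among genes with a mean over 100 CPM, 359 of 2008 were DEG, and 315 of them (87.7%) were higher in H. Among genes between 10 and 100 CPM, 776 of 6360 were DEG and 59.0% were higher in H. Between 1 and 10 CPM, 931 of 3567 were DEG and 54.4% were higher, and under 1 CPM, 272 of 977 were DEG and 65.4% were higher. Genes called under 10 CPM made up the larger share of DEG relative to the genes tested (27.8% of genes under 1 CPM and 26.1% between 1 and 10 CPM, against 12.2% and 17.9% in the classes above). The default filter can keep a gene that passes in 1 group only, so the low classes can hold genes kept through the higher group. With at least 10 counts in every sample, 1749 of 11104 genes were DEG. The excess of higher expression among abundant genes held with RLE scaling (92.4% of 367 DEG) and without both libraries that stood apart (90.5% of 328), and turned with library size scaling (32.3% of 396), where the share was 34.1% under 1 CPM, 23.3% from 1 to 10 CPM and 14.9% from 10 to 100 CPM.

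**Figure D2:**
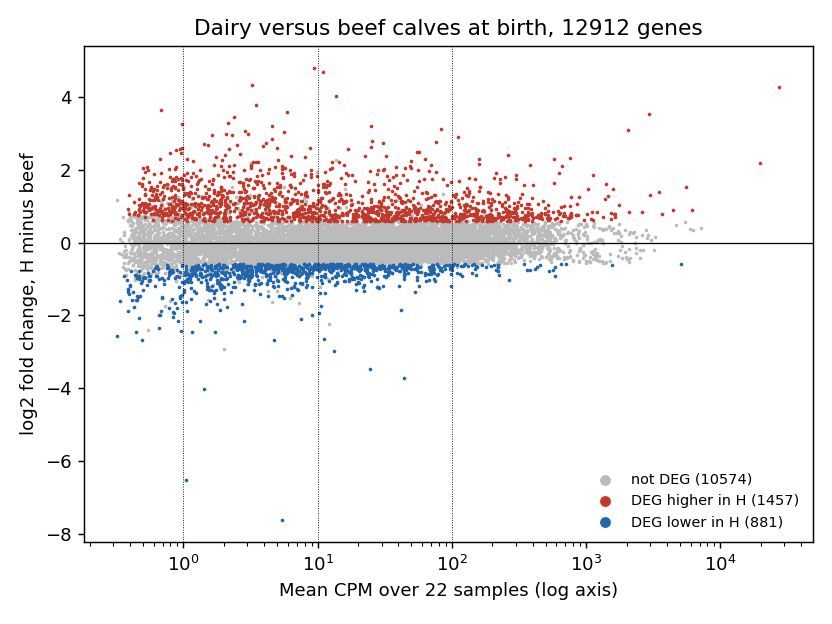
Log2 fold change of H minus beef samples at 0 h (y axis) against the mean CPM over 22 samples (x axis, log scale) for 12912 genes, with dotted lines at 1, 10 and 100 CPM. Over 100 CPM, 315 DEG lie above and 44 below the horizontal line, whereas the classes under 100 CPM hold DEG on both sides in more even numbers.

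The reads were also concentrated on fewer genes in H calves. The 10 most abundant genes of each library took from 7.19% to 38.95% of the reads on genes in H samples (median 9.47%) and from 4.70% to 9.92% in beef samples (median 5.54%). The means were 13.4% ± 10.6 (SD, n = 8) and 5.98% ± 1.33 (SD, n = 14), and the difference passed the exact permutation test (adjusted p = 0.000851 over 8 library measures). The 2 most abundant genes took 7.75% ± 10.1 in H and 1.93% ± 1.19 in beef samples (exact test, adjusted p = 0.00874). Both differences passed without the pair of libraries that stood apart, at 9.72% ± 2.64 against 6.04% ± 1.37 for the top 10 (n = 7 and 13, exact test, adjusted p = 0.00191) and 4.27% ± 2.59 against 1.97% ± 1.23 for the top 2 (exact test, adjusted p = 0.0209). The share of reads that mapped to several places was 15.96% ± 10.7 in H and 10.9% ± 6.63 in beef samples, and the share outside annotated genes was 26.8% ± 7.25 and 24.0% ± 3.41. Neither passed the exact test over all samples (adjusted p = 0.376 for both). Without the pair of libraries that stood apart both were higher in H, by 3.12 and 3.86 percentage points (exact test, adjusted p = 0.0355 for both). The share of reads on genes was then lower in H (56.9% ± 4.57 against 63.6% ± 2.25, exact test, adjusted p = 0.00191). Those libraries were set apart by shares of this kind, so the p-values without them are given as a description. Over all samples the share of reads on genes did not pass either (exact test, adjusted p = 0.376). The part of the shares outside genes and of multimapping reads in the gene differences was measured only by adding them to the fit. With the share outside genes as a covariate 2333 DEG were called, and with the share of multimapping reads 1999. With the 10 most abundant genes removed before scaling, 2321 were called.

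Complete separation of the calf types was uncommon for single genes. In 145 of 12912 genes (1.12%) the 8 H and 14 beef samples did not overlap in CPM, with beef above H samples in 37 (0.287%) and H above beef samples in the others (0.836%). Of the 2338 DEG, 4.45% did not overlap, which were 88 of the 1457 higher in H (6.04%) and 16 of the 881 lower in H (1.82%). Without both libraries that stood apart, 170 genes (1.31%) did not overlap. Most DEG thus shared part of their range between H and beef calves. The genes with the largest fold changes among DEG without overlap and with a mean of at least 1 CPM in the higher group are described next, with a pair in each direction.

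ENSBTAG00000015994 was the gene with the largest difference upward in H by this rule. Its CPM was 2.708 at the lowest, 8.429 at the median and 27.85 at the highest in H samples. In beef samples the corresponding values were 0.3694, 0.985 and 2.622. The lowest H sample was only just above the highest beef sample, while the medians differed widely. The log2 fold change was 3.20 (SE 0.35, edgeR adjusted p = 3.015e-06). CL and LF samples had medians of 0.885 and 1.271 CPM and did not pass the test against each other (edgeR adjusted p = 0.444). In raw reads the gene had 21 to 589 counts in H and 7 to 63 in beef samples.

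ENSBTAG00000006342 was among the abundant genes. H samples had from 1391 to 17830 CPM (median 2811), and beef samples from 164.2 to 1354 CPM (median 525.9). The highest H value came from H replicate 6, a library that stood apart, and the other 7 H samples ran from 1391 to 5473 CPM. The highest beef value, CL replicate 5 at 1354 CPM, was close to the lowest H value. The log2 fold change was 3.09 (SE 0.44, edgeR adjusted p = 3.805e-05). Without H replicate 6 it was 2.33 (SE 0.34, edgeR adjusted p = 7.57e-05), and without both libraries that stood apart 2.27 (edgeR adjusted p = 0.000103), so this library alone moved the fold change by over 1.5 times. The gene remained a DEG in each of the alternatives run.

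ENSBTAG00000031186 had the largest difference downward in H among the DEG that met the same rule. Its CPM ran from 1.29 to 4.395 (median 1.876) in H samples and from 4.633 to 22.58 (median 8.164) in beef samples. The highest H value, in H replicate 2, and the lowest beef value, in CL replicate 5, were adjacent. The log2 fold change was −2.09 (SE 0.32, edgeR adjusted p = 6.325e-05). The median was 8.061 in CL and 8.267 in LF samples.

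ENSBTAG00000012498 followed with 0.774 to 4.72 CPM (median 3.53) in H samples and 6.103 to 21.68 CPM (median 11.29) in beef samples. All 8 H samples were under 5 CPM and all 14 beef samples over 6 CPM. The log2 fold change was −1.997 (SE 0.29, edgeR adjusted p = 4.165e-05). The 4 genes kept their direction and call under each alternative run at 0 h, 39 or 40 for each gene. The alternatives reused the samples that chose the genes, so this outcome was close to fixed in advance and adds no support. The filter on at least 10 counts in every sample dropped ENSBTAG00000015994 and ENSBTAG00000012498, which therefore had 39. Of the other genes listed by the rule, 4 were higher in H and 4 lower. Within each direction, their log2 fold changes were smaller in size than those of the pair described.

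**Figure D3:**
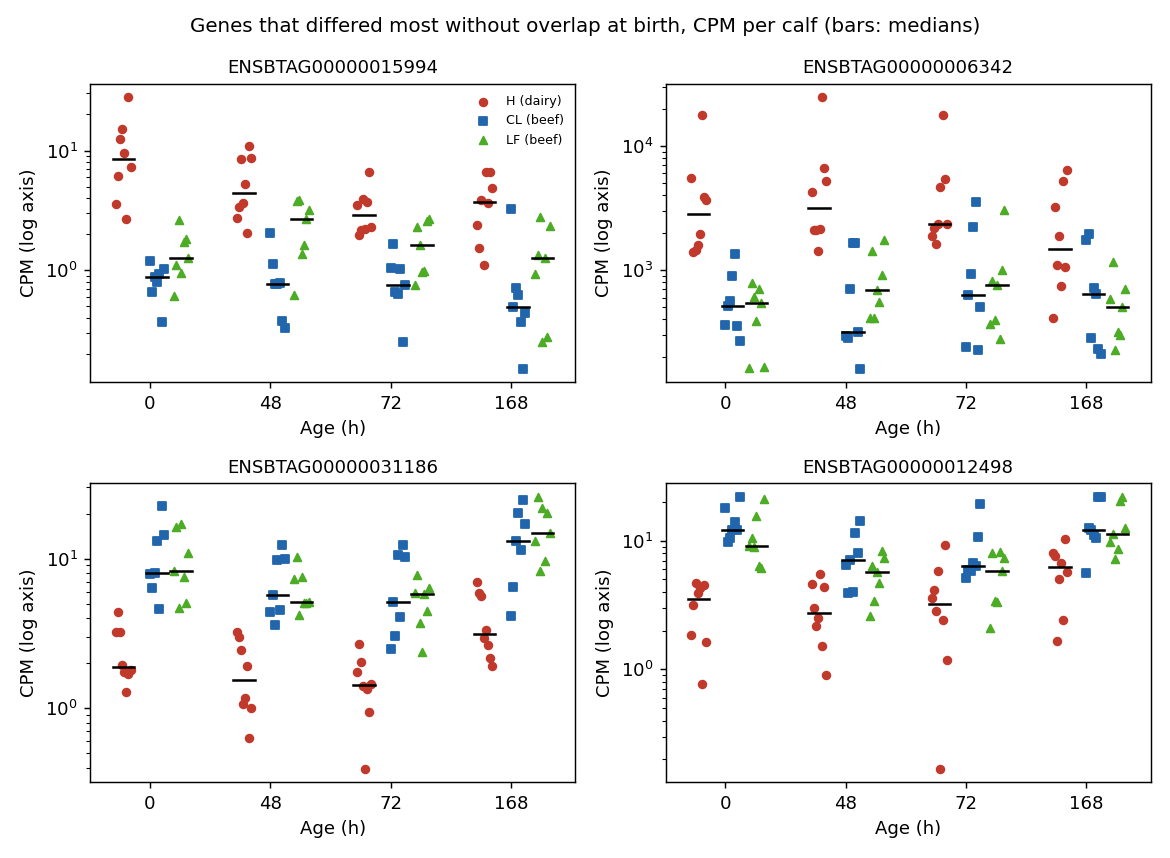
CPM (y axes, log scale) by age in h (x axes) of the 4 genes in single samples of H (circles), CL (squares) and LF (triangles) calves, with horizontal bars at the group medians. At 0 h the H samples do not overlap the beef samples in any panel, and at the later ages they overlap in part, except for ENSBTAG00000031186 at 48 h, while the H median stays on the same side of both beef medians.

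The 4 genes were followed in later samples, which took no part in their choice. These samples came from the same calves, whose samples deviated together across ages (mean r = 0.487 to 48 h and 0.328 to 168 h). The later values are thus no independent check of the choice. ENSBTAG00000015994 had log2 fold changes of 1.77, 1.37 and 1.81 at 48, 72 and 168 h (edgeR adjusted p = 0.00393, 0.00953 and 0.00732). For ENSBTAG00000006342 they were 2.92, 2.16 and 1.86 (edgeR adjusted p = 0.00048, 0.0105 and 0.00817). H replicate 6 was again highest in this gene at 48 and 72 h, at 24660 and 17750 CPM. Without this calf the log2 fold changes of ENSBTAG00000006342 were 2.09, 1.45 and 1.62, and the gene no longer passed at 72 h (edgeR adjusted p = 0.00183, 0.0514 and 0.0241). ENSBTAG00000031186 remained lower in H at nearly its difference at birth, with log2 fold changes of −1.91, −1.99 and −1.92 (edgeR adjusted p = 0.000266, 0.00146 and 0.000445). ENSBTAG00000012498 had log2 fold changes of −1.11, −0.94 and −1.17 and did not pass at 72 h (edgeR adjusted p = 0.0129, 0.135 and 0.00735). So 3 of the 4 genes were DEG at every age, and without H replicate 6 only ENSBTAG00000015994 and ENSBTAG00000031186 were. The median of ENSBTAG00000031186 in beef samples was 8.164, 5.409, 5.456 and 13.96 CPM at the 4 ages in turn, and in H samples 1.876, 1.538, 1.434 and 3.144, and the H median was under the beef median at each age.

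Each calf was then placed by genes called without it. The DEG at 0 h were called again without a calf, and each DEG was scored by whether the left-out calf was nearer to the mean of the H or of the beef samples. H calves were nearer the H mean on 49% to 86.1% of these DEG (median 72.2%), CL calves on 9.06% to 29.7% (median 12.7%) and LF calves on 4.16% to 55.1% (median 19.1%). The majority of DEG placed 7 of 8 H, 7 of 7 CL and 6 of 7 LF calves with their own type. The exceptions were H replicate 5 at 49% and LF replicate 6 at 55.1%, the same calves that almost met on component 1. H replicate 5 is the library whose label ends in R, and a part of that mark in its position was not tested. Leaving out LF replicate 6 raised the number of DEG to 2586 and leaving out H replicate 5 raised it to 2563.

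**Figure D4:**
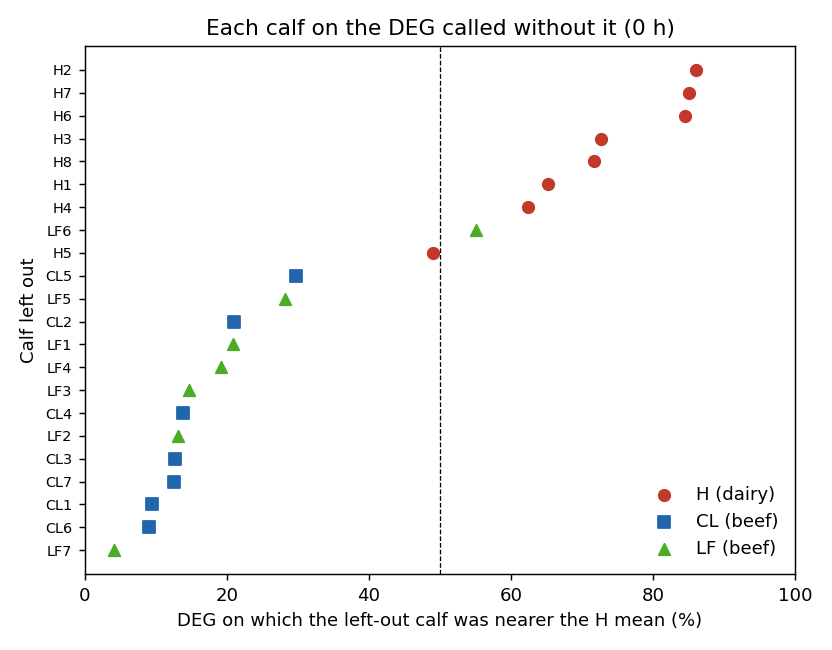
Share in percent of the DEG called without a calf on which that calf was nearer the H mean (x axis), for each of 22 calves at 0 h (y axis), with a dashed line at the midpoint. H calves lie between 49% and 86.1%, CL calves between 9.06% and 29.7% and LF calves between 4.16% and 55.1%, and H replicate 5 and LF replicate 6 lie on the side of the other calf type.

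The beef breeds were pooled, and the comparison of CL with LF calves at birth called 0 of 12744 genes (0%) with edgeR. An unadjusted p under 0.05 was found for 1277 genes (10%), the lowest adjusted p was 0.436, and DESeq2 called 9 genes. Taken singly, H against CL gave 2350 DEG of 12678 genes (61.6% higher in H) and H against LF gave 1308 of 12698 (72.7% higher). These comparisons share the H samples. The LF cows have a Friesian, and so a dairy, parent breed. LF samples also varied more among themselves than CL samples (median SD of log2 CPM 0.297 against 0.242), and they include a library that stood apart. A part of any of these in the counts was not tested. Whether the smaller number against LF differs from that against CL was not tested.

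The number of DEG between H and beef calves was higher at birth than at the 3 later ages, a difference in counts that was not tested. H and beef calves differed in 1606 of 12965 genes at 48 h (12.4%), in 999 of 12840 at 72 h (7.78%) and in 1180 of 12965 at 168 h (9.10%). These later samples were taken after colostrum and come from the same calves, so they are not independent animals. Of the 1457 DEG higher in H at birth, 876 (60.1%) were called in the same direction 48 h after birth. The number was 417 (28.6%) for 72 h and 542 (37.2%) for 168 h. They made up 76.1%, 73.7% and 69.6% of the genes called higher in H at those ages, where 8.88%, 4.41% and 6.01% of all genes tested were called higher. The opposite direction was called for 0, 2 and 3 of them. Leaving out H calf 6 moved the count at 72 h by over 1.5 times. Without this calf 1257 genes were higher in H at birth, of which 644 (51.2%), 249 (19.8%) and 414 (32.9%) were called at 48, 72 and 168 h, and the number of all genes called higher in H at 72 h was 360 against 566 with it.

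DEG lower in H at birth were followed in the same way. Of the 881, 306 (34.7%), 242 (27.5%) and 218 (24.7%) were also lower DEG at 48, 72 and 168 h, against 3.51%, 3.37% and 3.09% of all genes tested, and 0 were called in the opposite direction at each age. They made up 67.3%, 55.9% and 54.4% of the genes called lower in H at those ages. The median log2 fold change of the genes higher at birth was 0.94, 0.82, 0.62 and 0.58 at the 4 ages in turn. For those lower at birth it was −0.78, −0.56, −0.55 and −0.44. Over all genes tested, the median stayed between −0.0359 and 0.0349. The values at 0 h chose these genes, so a decline from 0 h to the next age is not by itself a change with age.

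**Figure D5:**
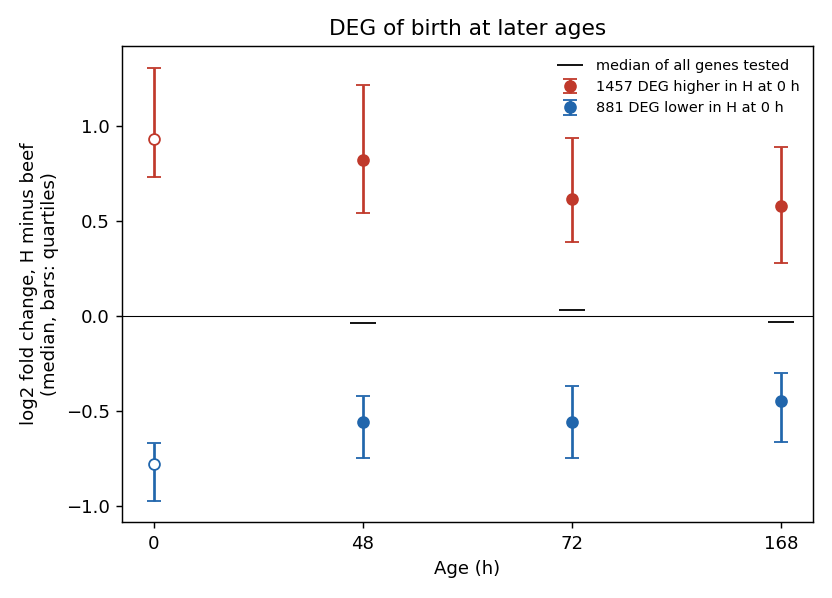
Median log2 fold change of H minus beef samples (y axis, bars from the lower to the upper quartile over genes) by age in h (x axis) for the 1457 DEG higher and the 881 DEG lower in H at birth, with short lines at the median of all genes tested. Open symbols mark 0 h, whose values chose the genes. At 48, 72 and 168 h the medians are 0.82, 0.62 and 0.58 for the first set and −0.56, −0.55 and −0.44 for the second.

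Of the 12912 genes tested at birth, 289 were DEG in the same direction at all 4 ages. They were 217 higher in H (14.9% of those higher at birth) and 72 lower (8.17% of those lower at birth). In contrast, 356 (24.4%) of the genes higher at birth and 426 (48.4%) of those lower at birth were DEG at no later age. A gene that was filtered out at a later age counted as not called there. Of the 1457 genes higher at birth, 1418, 1395 and 1399 were tested at 48, 72 and 168 h. Of the 881 lower at birth, 856, 845 and 861 were tested. Without H calf 6 the number of DEG at all 4 ages was 173 of 12995 genes tested at birth, with 119 higher and 54 lower in H. A call lost at a later age does not show that the difference changed, so the change itself was tested. As an interaction of calf type and age, edgeR called 0 of 13408 genes (0%) from 0 to 48 h, with an unadjusted p under 0.05 for 458 genes (3.42%) and a lowest adjusted p of 0.327. With the calf as a block, which the tag numbers in the labels give, 1 gene (0.00746%) was called, and DESeq2 called 4. From 0 to 168 h edgeR called 0 of 13402 genes (0%) with or without the block. Without the block, 2073 genes (15.5%) had an unadjusted p under 0.05 in the edgeR test, and the lowest adjusted p was 0.0599. DESeq2 called 89. The fits without the block took samples of 1 calf as independent. A count of 0 does not show that the difference stayed the same.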

How the data were processed

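The authors trimmed reads with cutadapt (TrimGalore), aligned them with STAR to UMD3.1 and deposited raw counts per Ensembl gene (unstranded column used here). Tool versions are not given in the sources used here. STAR leaves multimapping reads uncounted, so genes with close copies can be undercounted, and overlapping and antisense genes cannot be told apart without strand.

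Groups came from the labels. The members and lists were chosen with earlier results of these data known. Counts were tested with edgeR 4.0.16 in R 4.3.3 (TMM, default filter on low counts, robust quasi-likelihood), with only the samples compared in the fit. SE was the log2 fold change divided by the square root of F. Log2 CPM used a prior count of 2. Exact permutation tests were two-sided (Python 3.11.15, scipy 1.17.1).

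The named genes were to be the 12 DEG in each direction with the largest fold change, no overlap between types and at least 1 CPM in the higher group, or 6 by identifier where no symbols exist. The rule left 102 candidates, and 2 in each direction are printed. Parts of the rule that need symbols, and 27 gene lists by symbol, were not applied (0 of 24616 identifiers matched).

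Samples of 1 calf deviated together (mean r = 0.487 between 0 and 48 h, lowest 0.27, and 0.328 between 0 and 168 h, lowest −0.182 in CL replicate 1), and 22 and 17 of 22 samples at birth correlated best with their own calf's sample at those ages. The tag number in the labels names the calf, so it served as a block for interactions. Alternatives were DESeq2 1.42.0, other scalings, filters, thresholds, blocks and samples. The scripts were first tested on simulated counts with known changes.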

Additional observations from a re-analysis of the deposited data

Results flagged for a closer look

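Within H, CL and LF samples at 0 h, 14 of 36 groups of values held a sample whose gap to the others exceeded the critical value of Dixon's test, where chance alone flags about 1 in 20. H replicate 6 was highest in multimapping reads (40.96% against 8.70% to 19.4% in the other H samples), in the share of the 2 most abundant genes (32.14%) and of the 10 most abundant genes (38.95%), and in ENSBTAG00000006342 (17830 CPM against 1391 to 5473). LF replicate 1 had the lowest share of reads on genes (26.08% against 62.3% to 67.0% in the other LF samples) and outside annotated genes (13.37%), and the highest shares of multimapping (32.78%) and unmapped reads (27.66%). CL replicate 5 had 57.72% of reads on genes, 15.58% multimapping reads, 5.749% in the 2 and 9.924% in the 10 most abundant genes, the last against 4.70% to 6.38% in the other CL samples. H replicate 1 had the most reads on genes (39304404), and LF replicate 2 had 3.045% of them in its 2 most abundant genes. No explanation of these values was tested.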

How the results depend on the processing

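The number of DEG at 0 h (2338) was within 1.5 times of itself under most alternatives, among them DESeq2 (2326), RLE (2313), no filter (2688), at least 10 counts in every sample (1749), a fit of all 88 samples without (2454) and with the L number (2404), equal weights for CL and LF (2341) and dispersion without robust estimation (2349). It moved further against LF calves alone (1308), in an edgeR test against 1.5-fold (382) and without a fold change threshold (5298). In a separate fit with the L number as a covariate in the 22 samples, added after seeing the data, it was 1169. Leaving out each calf gave 2003 (without H replicate 6) to 2586 DEG (without LF replicate 6), with 57.5% to 67.1% higher in H. DESeq2 called 1617, 1121 and 1272 DEG at 48, 72 and 168 h, 9 between CL and LF, and 4 and 89 in the interactions to 48 and 168 h.

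Replicate numbers shared by H, CL and LF belong to different calves and did not pair samples (mean r = −0.0488, 1 of 21 samples nearest its own number). With them as a block, 2131 DEG were called. With the calf as a block, the interaction to 48 h called 1 gene. Without H calves 1 and 3, whose library numbers at 168 h are out of sequence although their tags match, the blocked interaction to 168 h again called 0 genes.

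Without both libraries that stood apart, chosen after seeing the data like the covariates and the removal of abundant genes, the difference in reads on genes was −6.703 points (adjusted p = 0.00191), that outside genes 3.863 and that in multimapping reads 3.123 (0.0355 each), and the difference in genes with a count turned from −25.7 to 61.34 (0.707, exact test). The libraries were set apart by shares of this kind, so these p-values are a description. Removal of hemoglobin genes was not run, since it needs symbols. Depth limits genes near 0.0763 to 0.299 CPM.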

Other observations

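The difference at birth was set beside the change with age in calves that took no part in it, as a description across genes, which are not independent replicates. Across 12527 genes, the log2 fold change of H minus CL at birth and the change of LF calves from 0 to 48 h had a Pearson r of 0.162 and a Spearman rho of 0.121. Across 12546 genes, H minus LF at birth and the change of CL calves had an r of −0.0820 and a rho of −0.121. Of the genes lower in H than in CL at birth, 31.9% rose in LF calves, and of those lower in H than in LF, 29.1% rose in CL calves, against 47.8% and 49.2% of all genes. For genes higher in H, 52.6% rose in LF calves and 38.4% in CL calves. The relation for genes higher in H thus differed in direction between the beef breeds, and both correlations were weak.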
